A study of Mus musculus with 4 samples.

Results

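The SIBLING proteins (small integrin-binding ligand, N-linked glycoproteins) and the peptidase Phex were followed on 4 microarrays of mouse primary osteoblasts, the bone-forming cells taken from the animal and grown in culture. The members are bone sialoprotein (Ibsp), osteopontin (Spp1), dentin matrix protein 1 (Dmp1), matrix extracellular phosphoglycoprotein (Mepe), dentin sialophosphoprotein (Dspp) and Phex. Every non-control probe named for 1 of these 6 genes was taken, which gave 8 of the 55681 probes and 6 of the 34844 gene names of the array. Ibsp and Dspp had 2 probes each, the other 4 genes had 1, and each probe was printed on 1 spot.

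All cultures were kept in medium with 10% fetal bovine serum and differed in what was added for 72 h. One was untreated, one received LOXL2 at 4 µg/ml, one received BMP2 at 200 ng/ml and one received both proteins at these doses. The labels call the cells without BMP2 pre-osteoblasts and those with BMP2 osteoblasts, and name no strain, age or bone of origin. BMP2 is a growth factor that drives bone and cartilage formation, while LOXL2 is an enzyme of the lysyl oxidase family, released by cells, that cross-links matrix proteins. The design text states the aim as a search for regulators of the osteoblast differentiation that BMP2 induces. Each treatment had 1 array, so a treatment has no replicate, and the fitted effect of a protein compares the 2 arrays that had it with the 2 that did not.

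SIBLING proteins are secreted, acidic, heavily phosphorylated proteins of bone and dentin, whose RGD motif binds integrins and whose acidic stretches bind calcium and hydroxyapatite. Ibsp is made by cells at the start of mineralisation, Spp1 by osteoblasts but also by macrophages and osteoclasts, Dmp1 and Mepe mainly by osteocytes, and Dspp mainly by the odontoblasts of the tooth. Phex is a membrane peptidase of osteoblasts and osteocytes that cleaves acidic peptides of this family, and its loss causes X-linked hypophosphatemia with raised FGF23.

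The promoters of Ibsp, Spp1 and Mepe are shown because these genes lie side by side and Ibsp alone was called. RefSeq promoters (GRCm38.p6) were found for 5 of the 6 genes, with 7 start sites in all, and not for Dspp. The 250 bases before the start are printed 5′ to 3′. Capitals mark short motifs, each searched on both strands. They were the RUNX core TGTGGT, the homeodomain letters TAATTA, the reversed CCAAT box ATTGG, the partial cyclic AMP response element TGACG, the TATA box TATAAA and the BMP SMAD letters GGCGCC. The matches printed do not overlap one another. Ibsp lies at chr5:104299037-104299286 (plus strand), the first of 2 Spp1 starts at chr5:104434861-104435110 (plus strand) and Mepe at chr5:104325079-104325328 (plus strand).
Ibsp: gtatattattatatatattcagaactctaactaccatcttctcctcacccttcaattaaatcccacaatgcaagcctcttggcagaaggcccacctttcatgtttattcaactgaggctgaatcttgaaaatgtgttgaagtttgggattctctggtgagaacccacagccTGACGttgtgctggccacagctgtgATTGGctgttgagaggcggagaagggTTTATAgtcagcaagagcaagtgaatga
Spp1: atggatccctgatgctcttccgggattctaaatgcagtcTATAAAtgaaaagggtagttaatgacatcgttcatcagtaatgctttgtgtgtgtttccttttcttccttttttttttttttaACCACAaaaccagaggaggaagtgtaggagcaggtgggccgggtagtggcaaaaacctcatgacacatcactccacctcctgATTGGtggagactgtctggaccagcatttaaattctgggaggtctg
Mepe: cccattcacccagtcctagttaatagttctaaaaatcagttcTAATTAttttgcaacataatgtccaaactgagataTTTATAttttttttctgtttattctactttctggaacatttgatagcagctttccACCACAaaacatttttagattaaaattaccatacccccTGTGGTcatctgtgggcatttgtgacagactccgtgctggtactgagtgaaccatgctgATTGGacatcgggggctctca

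The letters ATTGG were found before 5 of the 7 starts, in 4 of the 5 genes, and in 33.8% of all 32851 promoter windows of this length. They stood 54 bases before the start of Ibsp, 46 before that of Spp1, 21 before that of Mepe, and 101 and 57 before the starts of Dmp1. TATA letters lay before 3 starts, 28 bases before that of Ibsp (as TTTATA), 211 before that of Spp1 and 173 before that of Mepe, against 12.4% of all promoters. TGACG lay 79 bases before the start of Ibsp and 20 before that of Phex, against 17.8%. TAATTA lay before 2 starts, those of Mepe and the second of Spp1, against 4.84%. The RUNX letters occurred before 3 starts, those of Spp1 (128 bases before it), Dmp1 (164) and Mepe (118 and 80), against 14.0% of all promoters. GGCGCC was found at 0 of the 7 starts and in 9.59% of all promoters. These matches describe the letters and were not set against any measurement.

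Of the 8 probes, 5 were well above background on all 4 arrays, those of Ibsp, Spp1, Mepe and Phex. The Dmp1 probe was above background on 1 array, one Dspp probe on 2, and the other Dspp probe on none. Probes detected on 2 or more arrays entered the test, 33976 in all and 6 of the 8 member probes. Over all tested probes, limma called 11.9% changed with BMP2 at a Benjamini-Hochberg adjusted p under 0.05, 5.76% higher and 6.19% lower. Of the 6 member probes 2 were called, both higher and both of Ibsp. On 5 of the 6, both BMP2 arrays lay above both others, which held for 36.8% of all tested probes.

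**Figure D1:**
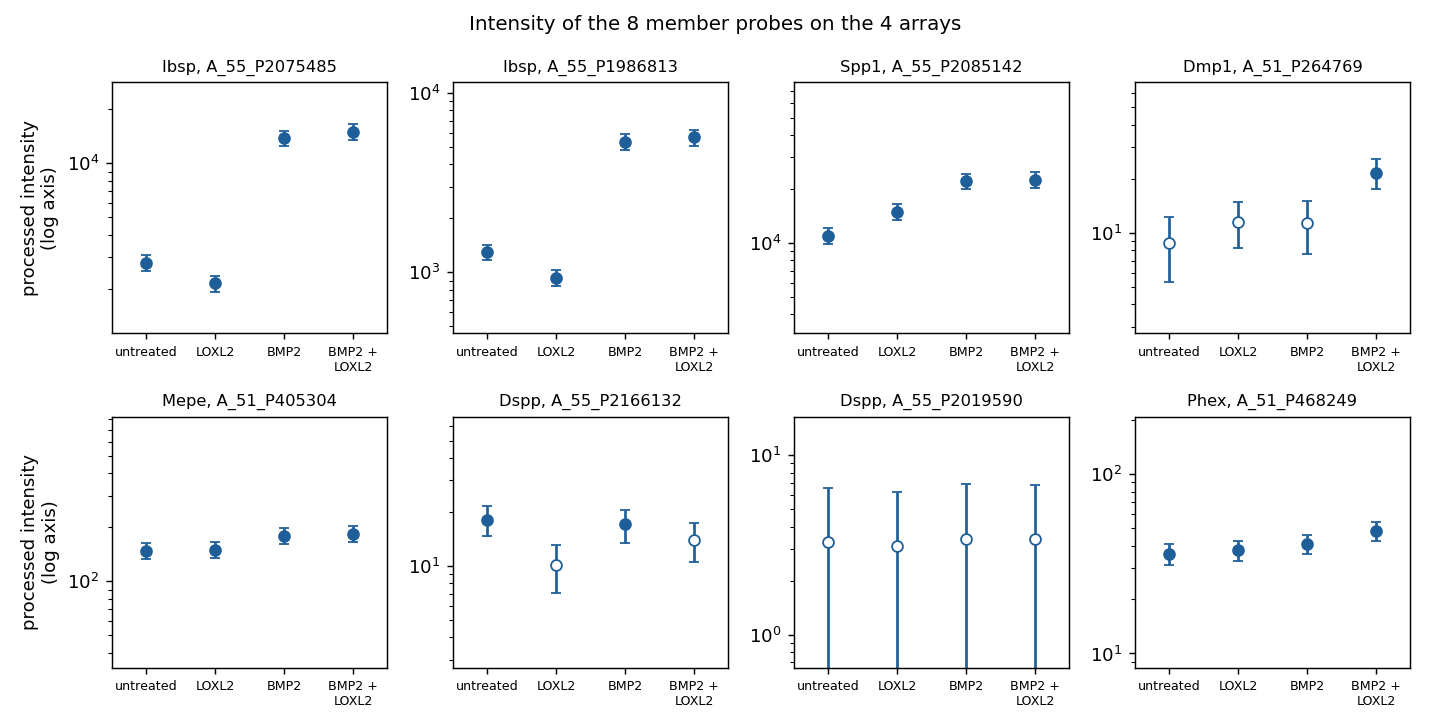
Processed intensity (log axis, own scale in each panel) of the 8 probes on the 4 arrays. Points are single spots, bars are the scanner software's error of the spot, filled points are well above background and open points are not. Both Ibsp probes step up on the 2 BMP2 arrays, Spp1 reads higher there by a smaller step, and the Dspp probe A_55_P2019590 has open points on all 4 arrays.

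Ibsp, which nucleates hydroxyapatite, rose with BMP2 on both of its probes. The probe at chr5:104739720-104739779 (mm9, plus strand) read 2786 in untreated cells and 2139 with LOXL2 alone, and 13832 with BMP2 alone and 14979 with both. The array's error estimate for each of these spots was 0.14 on the log2 scale. Both BMP2 arrays were far above the others, and the LOXL2 array was the lowest. On the log2 scale, after each array was set to its 75th percentile, the fitted change was 2.53 ± 0.16 (SE, 95% interval 1.98 to 3.07, limma adjusted p = 0.033), a 5.76-fold increase. Only 0.371% of tested probes had a higher fitted change.

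The second Ibsp probe, at chr5:104740413-104740472, starts 693 bases further along the gene. It read 1296, 931, 5344 and 5652 in the same order of arrays, so its 4 arrays ranked as those of the first probe did. Its fitted change was 2.29 ± 0.18 (SE, 95% interval 1.69 to 2.89, limma adjusted p = 0.0363), and the intervals of the probes overlap. Both probes read the same RNA on the same 4 arrays, so the second checks the first probe and does not repeat the treatment. By their positions they lie at different places in the gene. The stretches below differ in their letters, and the second holds the polyadenylation hexamer AATAAA, in capitals. Each is 30 bases of a 60-base probe, the first 30 of the first probe and the last 30 of the second.
A_55_P2075485: tgctacagccccagagtgatttccgcaaat
A_55_P1986813: ctggaacaaacttatgctaAATAAAtgact

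Spp1, an adhesive protein that also inhibits crystal growth, was measured by 1 probe at chr5:104868502-104868561 (plus strand). It read 10974 in untreated cells and 14939.6 with LOXL2 alone, and 22150.0 with BMP2 alone and 22566 with both. The LOXL2 array lay between the untreated array and the BMP2 pair, and the last 2 arrays were nearly equal. The fitted BMP2 difference was 0.77 ± 0.14 (SE, 95% interval 0.29 to 1.25), with a limma adjusted p = 0.0721, so it did not pass. It passed in 2 of 10 settings, with a limma adjusted p = 0.00738 after normexp background correction and 0.0477 among probes above background on all 4 arrays. These settings called 34.1% and 22% of all tested probes, where the main fit called 11.9%. The adjusted p of Spp1 over all settings ran from 0.00738 to 0.185.

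Mepe, an osteocyte phosphoprotein and a source of acidic peptides that bind Phex, was measured at chr5:104767416-104767475 (plus strand). Its intensity was 148 ± 15.2 in untreated cells (spot error) and 149.7 ± 15.3 with LOXL2 alone, and 179 ± 18.3 with BMP2 alone and 184 ± 18.7 with both. Both BMP2 arrays were above the others. The fitted difference was 0.25 ± 0.06 (SE, 95% interval 0.06 to 0.45, limma adjusted p = 0.0906), which did not pass, and 0.15 after normexp background correction. Without and under LOXL2 the BMP2 differences were nearly the same, 0.25 and 0.26, beside a spot error of 0.21.

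Dmp1, which regulates mineralisation and FGF23 in osteocytes, was measured at chr5:104642918-104642977 (plus strand). Its intensity was 8.81 ± 3.47 (spot error) in untreated cells, 11.5 ± 3.30 with LOXL2 alone, 11.3 ± 3.72 with BMP2 alone and 21.6 ± 4.13 with both. Only the last value was well above background. Against the LOXL2 array it was 1.64-fold higher and against the BMP2 array 1.45-fold, as bounds that leave out the spot error. The log2 differences were 0.87 and 0.90, with spot errors of 0.50 and 0.55. After normexp background correction they were 0.12 and 0.15. For such a bound the dim array was set to the lowest intensity that counted as above background on it (12.9 and 14.6) or to its own value, whichever was higher. These are single spots with no test, and the probe did not enter the fit.

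The Dspp probes lie 1474 bases apart and differ in sequence. The probe at chr5:104607570-104607629 (plus strand) is printed whole because it holds 4 units of AGTGAC, in capitals, from the serine and aspartate repeat for which Dspp is known. The first 30 bases of the other, at chr5:104609044-104609103, hold none.
A_55_P2166132: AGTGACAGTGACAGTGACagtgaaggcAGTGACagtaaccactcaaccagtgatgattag
A_55_P2019590: cactaaagccatgggtagaaaactcatcgt

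The repeat probe read 18.1 ± 3.49 (spot error) in untreated cells, 10.1 ± 3.01 with LOXL2 alone, 17.1 ± 3.56 with BMP2 alone and 13.9 ± 3.39 with both. It was above background on the untreated and BMP2 arrays and not on those with LOXL2. By the same kind of bound, the untreated array was 1.44-fold above the LOXL2 array, and the BMP2 array 1.20-fold above the array with both. The log2 differences with minus without LOXL2 were -0.87 and -0.33, beside spot errors of 0.51 and 0.46. The second is thus smaller than its spot error. The other probe read 3.29, 3.11, 3.43 and 3.41, each a surrogate value that the scanner software puts in place of a signal not above background. A repeat of 2 joined AGTGAC units occurred in 2 other probes of the array, and both were above background on 0 arrays. In limma the repeat probe gave a BMP2 difference of 0.15 ± 0.18 (SE, adjusted p = 0.572) and a LOXL2 difference of -0.60 ± 0.18 (SE, adjusted p = 0.825, unadjusted p = 0.0496). Both rest on 2 arrays below background. The probe passed the filter only through the 2 arrays without LOXL2. A lower value with LOXL2 was thus favoured beforehand, and its p-values are no test of it.

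Phex was measured at chrX:153596731-153596790 (minus strand). It read 36.0 ± 4.68 (spot error) in untreated cells, 37.6 ± 4.67 with LOXL2 alone, 40.9 ± 5.16 with BMP2 alone and 48.1 ± 5.74 with both. The array with both was the highest and the untreated array the lowest, and the largest step in this order was the last. The fitted BMP2 difference was 0.24 ± 0.08 (SE, 95% interval -0.02 to 0.50, limma adjusted p = 0.143), and 0.07 after normexp.

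**Figure D2:**
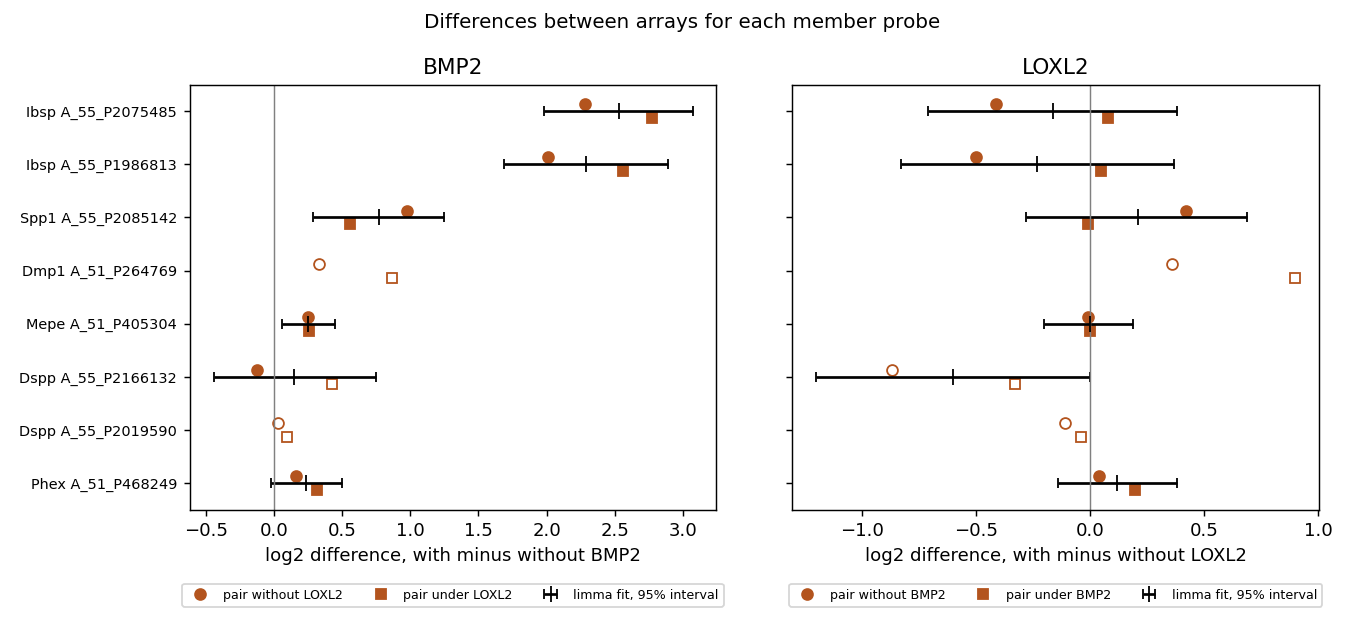
Log2 differences with minus without BMP2 (left) and LOXL2 (right) for each probe, as 2 single pairs of arrays (circles and squares, open where an array was not above background) and as the limma fit with its 95% interval (black; none for the probes that did not enter it). The Ibsp intervals lie between 1.69 and 3.07 with BMP2, and the LOXL2 intervals of Ibsp, Spp1, Mepe and Phex include 0.

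The response to BMP2 was also read from 1 array against 1 array, without a test. The brighter Ibsp probe differed by 2.28 without LOXL2 and by 2.77 under it, and the other by 2.01 and 2.56. Spp1 went the other way, with 0.98 and 0.56, and Phex differed by 0.16 and 0.32. The spot errors of these differences were 0.20 for Ibsp and Spp1, and 0.26 and 0.25 for Phex. A difference of at least 2-fold, found for both Ibsp probes in both pairs, in the upward direction occurred in 2.89% of tested probes without LOXL2 and in 2.62% under it.

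For LOXL2, limma called 0% of the 33976 tested probes and so 0 member probes. An unadjusted p under 0.05 was reached by 1955 probes, and eBayes with trend and robust settings called 71. Without BMP2, the 1 LOXL2 array differed from the untreated array by -0.41 and -0.50 on the Ibsp probes and by 0.42 for Spp1. The spot error of each difference was 0.20. With BMP2 present the LOXL2 differences were 0.08 and 0.05 for Ibsp and -0.01 for Spp1. The fitted LOXL2 differences were -0.16 ± 0.16 and -0.23 ± 0.18 for Ibsp (SE, limma adjusted p = 0.884 and 0.86), 0.21 ± 0.14 for Spp1 (adjusted p = 0.85) and 0.12 ± 0.08 for Phex (adjusted p = 0.84). For Mepe the 95% interval of the LOXL2 difference ran from -0.20 to 0.19.

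The 5 SIBLING genes lie in a row on mouse chromosome 5, where their probes span 261 kb on mm9 in the order Dspp, Dmp1, Ibsp, Mepe, Spp1. Within 200 kb of that span the array held 30 further probes, of which 12 were tested and 1 was called, where 11.9% of all tested probes were called. The called probe was that of Sparcl1, a matrix protein related to the bone glycoprotein Sparc, which rose by 0.89 ± 0.06 (SE, limma adjusted p = 0.0333). The probe of Pkd2, the polycystin channel gene 66.2 kb beyond Spp1, differed by 0.68 ± 0.10 (SE, limma adjusted p = 0.0559). The probes of Nudt9, on the other side of the cluster, differed by 0.37 and 0.42 (adjusted p = 0.0619 and 0.0552). The neighbours did not share a direction. LOC100046091 differed by -0.66 ± 0.14 (SE, limma adjusted p = 0.0859) and the tested Hsd17b11 probe by 0.08 ± 0.06 (adjusted p = 0.377). Mepe, the gene next to Ibsp among the members, differed by 0.25 where the Ibsp probes rose by 2.53 and 2.29.

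**Figure D3:**
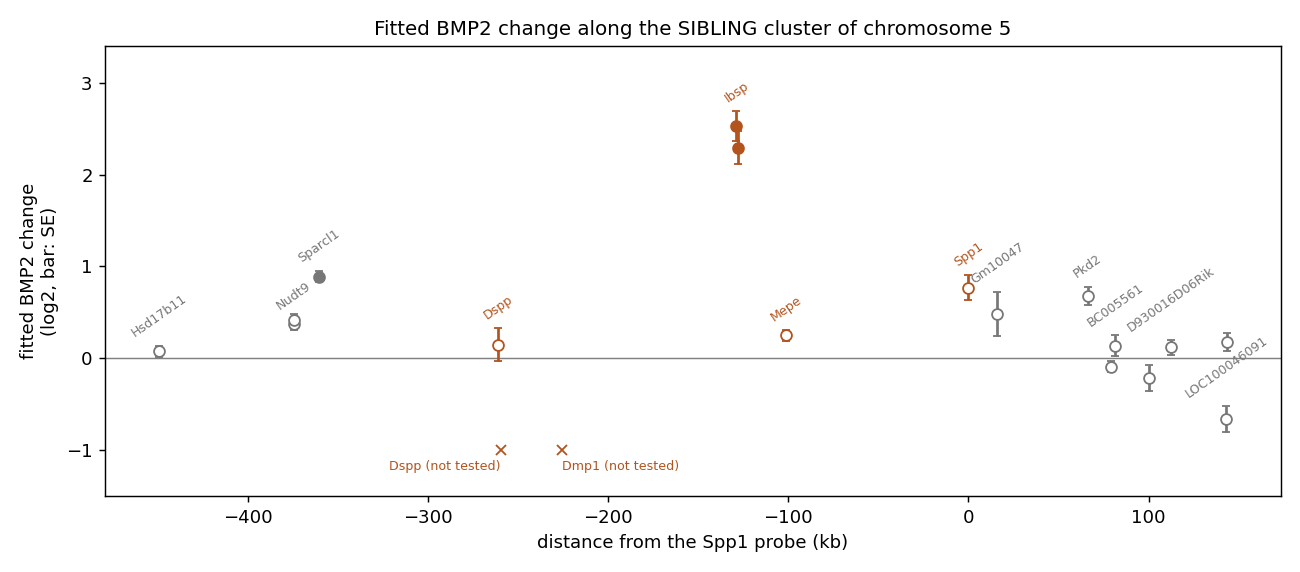
Fitted BMP2 change (log2, bars are SE) of each tested probe against its distance in kb from the Spp1 probe. SIBLING genes are in orange and neighbours in grey, filled points were called, and crosses at the bottom mark member probes that did not enter the fit. The Ibsp probes stand at 2.53 and 2.29, with Sparcl1 at 0.89 and Spp1 at 0.77.

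Markers of the labelled cells were present. Col1a1, Col1a2, Sparc, Alpl, Bglap, Runx2 and Sp7 were above background on all 4 arrays. So were 3 of 3 endothelial and 3 of 4 skeletal muscle genes, so detection alone does not define the cells. With BMP2, Bglap rose by 3.60, Sp7 by 2.23 and Alpl by 1.87 (limma adjusted p = 0.0298, 0.0298 and 0.0345). Col1a1, Col1a2, Sparc and Runx2 differed by -0.06, -0.12, -0.10 and 0.08 and were not called. Of 5 osteocyte markers, Fgf23, Pdpn and Ptprz1 were above background on all 4 arrays by their most intense probe, and Sost and Dkk1 on none. The other Fgf23 probe was above background on no array. With BMP2, Ptprz1 was higher by 0.74 (limma adjusted p = 0.0397). Fgf23 and Pdpn differed by -0.30 and -0.43 (adjusted p = 0.131 and 0.054). On the same arrays chondrocyte markers changed with BMP2. The summed scaled intensity of 6 genes was 30100 untreated and 35500 with LOXL2 alone, and it reached 131000 with BMP2 alone and 207000 with both. Col2a1 made up 27000, 31800, 115000 and 178000 of these sums. Each of the 6 genes rose in the fit, from Sox9 (0.73) to Col10a1 (8.33) (limma adjusted p from 0.0298 to 0.0381). Col10a1 and Matn1 were above background on 3 and 2 arrays. For Matn1 (3.53, 5.64, 51.3 and 162) these were the 2 arrays with BMP2. It entered the test only through them, so its call adds no support of its own. Of 10 macrophage and osteoclast genes, 8 were above background on all 4 arrays and the calcitonin receptor Calcr on none, with summed intensities of 72300, 74500, 93900 and 93700. Ctsk and the phosphatase Acp5 carry most of this sum, and the other 7 of the 9 tested genes had fitted BMP2 differences below 0. Among them lysozyme (Lyz2) fell by 0.89 and the mannose receptor Mrc1 fell by 1.55, while the osteoclast protease Ctsk rose by 0.50 (limma adjusted p = 0.036, 0.0474 and 0.0468). The part of these cells in the Ibsp and Spp1 values was not tested, and more cells of a type cannot be told apart from more RNA per cell.

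Genes around the SIBLING proteins were counted in 6 lists, of which 62 of 78 genes were tested by their most intense probe. Of these 15 rose and 7 fell. In the same fit 6.13% of the most intense probes of all 24033 tested gene names rose and 6.59% fell. A separate fit with 1 probe a gene called more, 20.3% of all genes, and 18 list genes higher and 8 lower. Among 16 transcription factors that act on bone genes, 7 rose and 3 fell, with a median of 0.45 where the median of all tested probes was 0.016. The osteoblast factor Sp7 rose by 2.23 ± 0.06, the homeobox factor Dlx5 by 1.40 ± 0.06, the Wnt effector Tcf7 by 1.99 ± 0.08, Mef2c by 1.42 ± 0.11, the TGF-beta-inducible factor Klf10 by 1.11 ± 0.06, Atf4 by 0.60 ± 0.07 and the Notch and BMP target Hey1 by 3.80 ± 0.11 (SE, limma adjusted p from 0.0298 to 0.0447). Those that fell were Osr2 (-1.78), Zfp521 (-0.69) and Twist1, a repressor of Runx2 activity (-0.50). Runx2 itself did not pass on any of its 3 probes, with differences of 0.08, 0.57 and 0.73 (adjusted p = 0.413, 0.0608 and 0.0577).

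In the list drawn up for SIBLING modification and cleavage, 2 of 18 tested genes rose and 3 fell (median 0.18). The list also holds genes with other substrates, among them the procollagen enhancer Pcolce. Alkaline phosphatase (Alpl), which removes phosphate groups from Spp1, rose by 1.87 ± 0.13 and the enamel protease Klk4 by 1.12 ± 0.06. The stromelysin Mmp3, which cleaves Spp1, fell by 1.79 ± 0.21, the procollagen enhancer Pcolce fell by 0.53 ± 0.06 and the tolloid-like protease Tll1 fell by 1.58 ± 0.06, although the second Tll1 probe differed by -0.05 (SE, limma adjusted p of the called probes from 0.0298 to 0.0472). The secretory kinase Fam20c, which phosphorylates the family, differed by 0.38 and 0.47 on its probes (adjusted p = 0.0887 and 0.108). Bmp1, the protease that matures Dmp1 and Dspp, differed by -0.23, -0.11 and -0.10 on its 3 probes (adjusted p = 0.112 to 0.318). Tll2, Mmp9 and Mmp20 were above background on 0 arrays.

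Of 9 tested receptors of the family, 0 rose and 1 fell in limma (median -0.04). Itga8, an integrin chain that binds RGD, fell by 2.66 ± 0.10 (SE, adjusted p = 0.0298). Itgav differed by -0.10 and -0.06, Itgb3 by -0.07 and -0.09, and the Spp1 receptor Cd44 by -0.01 on its brightest probe (adjusted p = 0.366, 0.502, 0.565, 0.542 and 0.873). Itgb6 and Itgb8 were above background on 0 arrays.

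Of the 5 tested relatives of Phex in the M13 peptidase family, 3 rose and 0 fell, with a median of 0.83. Ecel1 rose by 2.25 ± 0.18, Mmel1 by 1.28 ± 0.08 and 1.38 ± 0.09 on its probes, and the endothelin-converting enzyme Ece1 by 0.83 ± 0.08 (SE, limma adjusted p from 0.033 to 0.0398). Neprilysin (Mme) differed by -0.30 and -0.18 (adjusted p = 0.0941 and 0.183), and Kel was above background on 0 arrays.

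In the list of FGF23 and phosphate handling, 2 of 11 tested genes rose and 0 fell (median 0.22). The pyrophosphate exporter Ank rose by 0.85 ± 0.06 and the vitamin D receptor Vdr by 0.71 ± 0.06 (SE, limma adjusted p = 0.0341 and 0.0381). Phospho1, a phosphatase of matrix vesicles, differed by 0.74 ± 0.23 (SE, adjusted p = 0.141). For Fgf23 one probe was above background on all 4 arrays and differed by -0.30 (adjusted p = 0.131), while the other was above background on none, so the probes disagree on whether it was detected. Kl, Slc34a2, Slc34a3 and Cyp24a1 were above background on 0 arrays. Of the other secretory calcium-binding phosphoproteins, Sparcl1 alone was called among 3 tested genes (median -0.05), and the enamel gene Amelx, above background on 3 arrays, differed by -0.05 (adjusted p = 0.825). Ambn was above background on 1 array, that with BMP2 alone, and Enam, Amtn, Odam, Odaph and Smr3a on 0 arrays. No gene of the 6 lists was called with LOXL2.

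**Figure D4:**
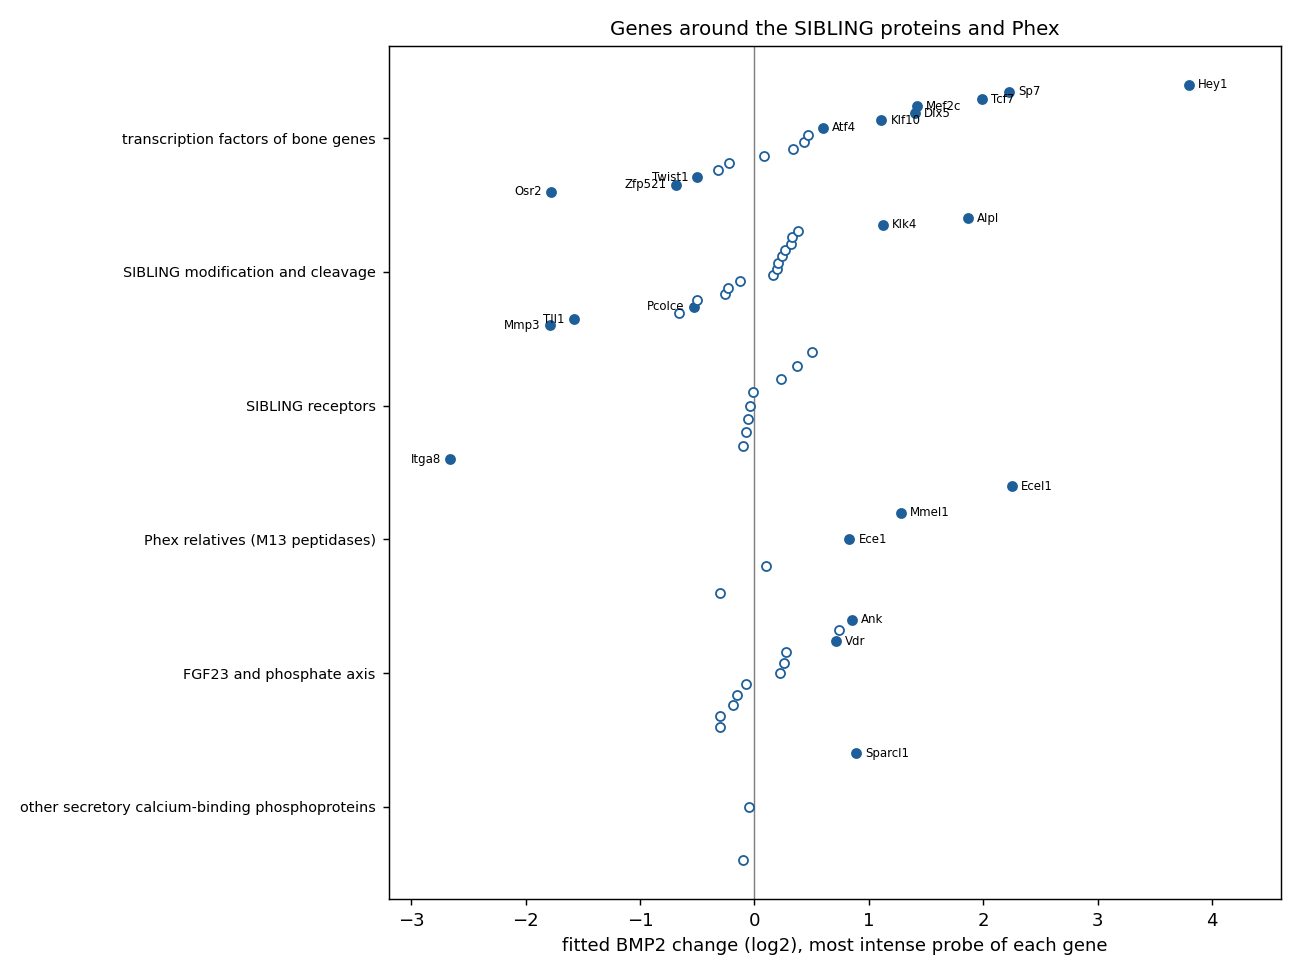
Fitted BMP2 change (log2) of the most intense probe of each tested gene, by list. Filled points passed an adjusted p of 0.05 and are named, open points did not. Hey1 stands at 3.80 and Itga8 at -2.66, the ends of the range.

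Genes with a pattern like that of a member were sought among probes above background on all 4 arrays with a fitted BMP2 change of at least 1 in size, 1064 probes in all. Likeness was the Euclidean distance between log2 values over the 4 arrays, each centred on its mean. Nearest to the brighter Ibsp probe were Stk32a (0.20), Ube2ql1 (0.29) and Spns2 (0.31), and nearest to the other Gucy1a1 (0.30), Gipc2 (0.34) and Ube2ql1 (0.35). Among these candidates Rab39b (0.25), Arhgef2 (0.27) and Abcg1 (0.27) were nearest to Spp1. The fitted changes of Spp1, Mepe and Phex (0.77, 0.25 and 0.24) lay below the limit of 1 set for candidates, so only genes with a larger response could be returned for them. The limit sets how near such genes could come, and genes that resemble Mepe or Phex were not looked for among smaller changes. With 4 arrays, such distances are descriptions only.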

How the data were processed

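Total RNA (100 ng) was labelled with Cy3 and hybridised to 1-colour Agilent arrays, per the labels. The authors made the deposited spot intensity values with Agilent software (Feature Extraction, version 10.7.3.1 as the submitters' processing notes and the file headers give it). Spatial and multiplicative detrending and surrogate values were on and the further background adjustment was off, per the file headers. The deposited value table equalled the mean processed intensity of a probe, within 0.1%, for 99.52% to 99.53% of probes and all 8 member probes.

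Here log2 of the processed signal was reduced by the 75th percentile of the non-control spots of the array. Outlier-marked spots (109 to 144 per array) were left out, spots of a probe were averaged, and no spot was saturated. Between 60.4% and 62.2% of spots were well above background. With 4 arrays on 1 slide, a treatment cannot be told apart from its place on the slide. The number of arrays limits the precision.

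An additive model of BMP2 and LOXL2 was fitted over 33976 probes with limma 3.58.1 under R 4.3.3 (1 residual degree of freedom, prior 1.69), with two-sided tests. It was tested on simulated data. Only large BMP2 changes were planted there, so LOXL2 changes and BMP2 changes as small as those of Spp1, Mepe and Phex were not covered. On the measured arrays the median SE was 0.0675. Nothing says that the arrays came from separate cultures. The p-values set each BMP2 or LOXL2 effect against the departure from additivity between these 4 arrays, moderated by limma over all tested probes. They do not test that departure itself and do not measure variation between cultures. Accessions of 26762 probes were brought to RefSeq symbols (GRCm38.p6, names only). Probe positions are those of the files (mm9), and promoters are on GRCm38.p6. Marker sums are intensities scaled to the untreated array's 75th percentile, over the most intense probe of each gene.

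The members and lists were chosen with earlier results of these data known. Named were all member probes and the 3 genes nearest in pattern to each Ibsp probe and to Spp1. Those found for Mepe and Phex are not named, and none were sought for Dmp1 and Dspp. Per list, the called genes (the 6 largest changes) and those not above background were named. Klf10, Atf4, Zfp521, Twist1, Pkd2, Nudt9, LOC100046091 and Hsd17b11 were added after their values were seen. So were uncalled genes of textbook roles (Runx2, Fam20c, Bmp1, Itgav, Itgb3, Cd44, Mme, Phospho1, Fgf23). Alternatives were normexp (offset 50), quantile and median scaling, the value table, 2 other filters, kept spots, eBayes with trend and robust settings, and 1 probe a gene.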

Additional observations from a re-analysis of the deposited data

Results flagged for a closer look

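Some differences pointed opposite ways in the 2 backgrounds, and the contrast between backgrounds was not tested, because each value rests on a single pair of arrays. LOXL2 against no LOXL2 gave -0.50 without BMP2 and 0.05 with it on the second Ibsp probe, and -0.41 and 0.08 on the brighter one. For Spp1 the same differences were 0.42 and -0.01. The values with BMP2 were smaller than the spot error of 0.20. On the repeat probe of Dspp, BMP2 gave -0.12 without LOXL2 and 0.43 with it, against spot errors of 0.41 and 0.56.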

How the results depend on the processing

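The fitted BMP2 change of Ibsp kept its direction in all settings, 2.47 to 2.58 on the brighter probe and 2.23 to 2.34 on the other. Both were called in every setting except 1: with no filter on dim probes the values were 2.53 and 2.29 with limma adjusted p = 0.125 and 0.126, the smallest adjusted p of any probe was 0.125, and 0 member probes, 0 related genes up and 0 down were called (11949 probes had an unadjusted p under 0.05). With 1 probe a gene, which drops the second Ibsp probe by construction, 1 member probe was called. Spp1 was called with normexp (0.75) and among probes above background on all 4 arrays (0.77). Related genes called higher and lower numbered 25 and 16 with normexp and 31 and 15 with trend and robust settings, against 15 and 7. Over all probes 4060 were called, 11584 with normexp, 13738 with trend and robust settings, 6943 above background on all arrays and 4883 genes with 1 probe a gene. The share of called probes that rose was 48.2%, and 56.9% with median centring. Under normexp the dim probes moved: the fitted BMP2 difference of Phex went from 0.24 to 0.07 and that of Mepe from 0.25 to 0.15, the Dspp repeat probe turned to -0.03 with BMP2 and to -0.20 between LOXL2 and untreated arrays, and Dmp1 on the array with both proteins differed by 0.12 from LOXL2 and 0.15 from BMP2. The LOXL2 difference of Mepe turned to 0.01 with quantile and to 0.00 with median scaling. Leaving out 1 array leaves no residual degree of freedom; the single pairs give those values. No paired analysis was possible because each treatment has 1 array and the labels give no replicate number.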
